A study of Mus musculus with 6 samples.

Results

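The vomeronasal type 2 receptors (V2Rs) are the genes whose symbol is Vmn2r followed by a digit. By this rule 125 of the 55421 genes in the tables were V2Rs. They were read in cortex RNA of male wild-type C57BL/6J mice, with 1 library for each of 3 mice of 6 months (mice 10, 11 and 17) and 3 mice of 24 months (mice 2, 4 and 5). All 6 mice had isoflurane anesthesia before the tissue was taken, and each frozen cortex was powdered as bulk tissue, so a library holds RNA of all cortical cell types. In such tissue, fewer cells of a type and less RNA per cell cannot be told apart.

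V2Rs are G protein-coupled receptors with a large extracellular domain that binds the ligand. They are known from the vomeronasal organ of the nose, where neurons of the basal layer use them to detect peptides and proteins of other animals, such as exocrine gland secreted peptides and major urinary proteins. Each such neuron is known to carry a member of one of the larger V2R subfamilies together with a member of family C (Vmn2r1 to Vmn2r7 here), and to signal through the G protein subunit encoded by Gnao1 and the cation channel encoded by Trpc2. The cortex is not a known site of this sense.

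Of the 125 genes, 120 were annotated as protein-coding, 2 as polymorphic pseudogenes and 3 as unprocessed pseudogenes. They lay in 18 clusters on 9 chromosomes when genes no more than 1000000 bases apart were joined. Their summed exon length ran from 2482 to 26506 bases with a median of 6601, and 99 of them had at least 6 exons in the longest transcript. Because the genes arose as near copies of each other, a short read often matches several of them. A read of 75 bases that loses 3 bases at each end leaves 69 bases, and a 69-base window was called unique here when it occurred in the annotated transcripts of 1 gene only.

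The window below is shown as an example of sequence shared by many genes, V2Rs among them. It lies in a coding exon of Vmn2r43 at chr7:8255668-8255736 on the minus strand of GRCm38, and it occurred without change in transcripts of 43 genes, 20 of them V2Rs. The lines after it give the same window in other V2Rs, with the bases that differ from Vmn2r43 in capitals.
Vmn2r43: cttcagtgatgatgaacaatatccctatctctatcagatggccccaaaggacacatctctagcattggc
Vmn2r38: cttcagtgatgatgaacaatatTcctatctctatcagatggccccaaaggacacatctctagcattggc
Vmn2r42: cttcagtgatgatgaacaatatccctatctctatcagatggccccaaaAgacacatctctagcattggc
Vmn2r51: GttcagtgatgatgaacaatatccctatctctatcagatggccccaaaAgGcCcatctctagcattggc
Vmn2r52: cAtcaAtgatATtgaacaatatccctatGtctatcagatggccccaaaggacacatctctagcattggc
Vmn2r28: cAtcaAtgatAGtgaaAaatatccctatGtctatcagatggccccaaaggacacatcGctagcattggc

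Vmn2r38 and Vmn2r42 differed from Vmn2r43 at 1 base of the window, Vmn2r51 at 4, Vmn2r52 at 5 and Vmn2r28 at 7. A read inside the unchanged window cannot be given to 1 gene. The authors counted only reads with a mapping quality of at least 15, which the aligner does not give to a read with several equal matches. The level of a gene with few unique windows is therefore a lower estimate.

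V2R RNA was a very small part of every library and was higher in the 24-month-old cortex. The 6 libraries held 29495379 to 36494240 counts in all genes. V2Rs took 695 counts in mouse 10, 834 in mouse 11 and 891 in mouse 17 at 6 months, and 2447 in mouse 2, 2244 in mouse 4 and 1694 in mouse 5 at 24 months. The ages did not overlap, and mouse 2 was the highest. The share of all counts was 0.00231% ± 0.000243 at 6 months and 0.00680% ± 0.00157 at 24 months (mean ± SD of 3 mice here and below). After scaling each library by trimmed mean of M values (TMM), the summed level was 24.6 ± 2.37 CPM (counts per 1000000) at 6 months and 63.3 ± 12.9 CPM at 24 months, which is 2.57 times higher.

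More V2R genes were seen in the older mice. At least 1 count was present for 97, 97 and 104 genes in mice 10, 11 and 17, and for 114, 112 and 114 genes in mice 2, 4 and 5. At least 10 counts were present for 12, 19 and 28 genes at 6 months and for 85, 77 and 69 genes at 24 months. The middle gene of a library had 2 to 4 counts at 6 months and 10 to 16 counts at 24 months. Part of the difference in genes detected went with the larger number of V2R counts: when each library was reduced in calculation to 695 V2R counts, 97.0 ± 2.30 genes were expected at 6 months and 103.7 ± 1.69 at 24 months, and the ages still did not overlap. Over the 6 libraries together, 83 genes had a count in every library. Another 6 genes (Vmn2r21, Vmn2r35, Vmn2r40, Vmn2r46, Vmn2r47 and Vmn2r48) had 0 counts in all of them, and a count of 0 allows up to 3 counts, or 0.0867 to 0.0973 CPM, in a library. These limits cover counting error only.

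**Figure D1:**
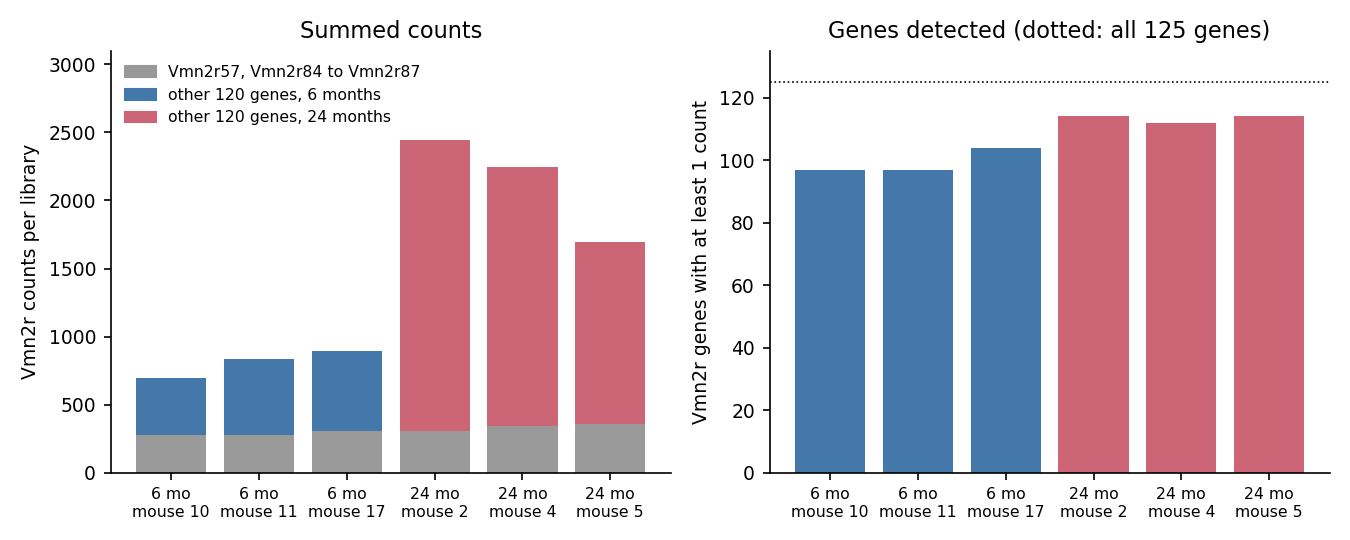
Left, counts summed over V2R genes in each library, with the 5 genes Vmn2r57 and Vmn2r84 to Vmn2r87 in gray below and the other 120 genes in color above. Right, number of V2R genes with at least 1 count. The gray part spans 277 to 306 counts in the younger and 308 to 357 in the older mice. The colored part spans 418 to 585 in the younger and 1337 to 2139 in the older mice.

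The counts were spread unevenly over the genes at 6 months and more evenly at 24 months. Vmn2r57 was the highest gene in all 6 libraries. It held 17.1% ± 2.71 of the V2R counts at 6 months and 6.41% ± 1.62 at 24 months. The 5 highest genes of each library together held 36.0% ± 3.51 and 18.9% ± 3.02. It took 10, 14 and 15 genes to reach 50% of the V2R counts in mice 10, 11 and 17, and 27, 24 and 23 genes in mice 2, 4 and 5. The effective number of genes, given by the inverse Simpson index (the number of equally abundant genes that would give the same concentration), was 21.8 ± 4.51 at 6 months and 57.9 ± 9.32 at 24 months. For none of these measures did the ages overlap.

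**Figure D2:**
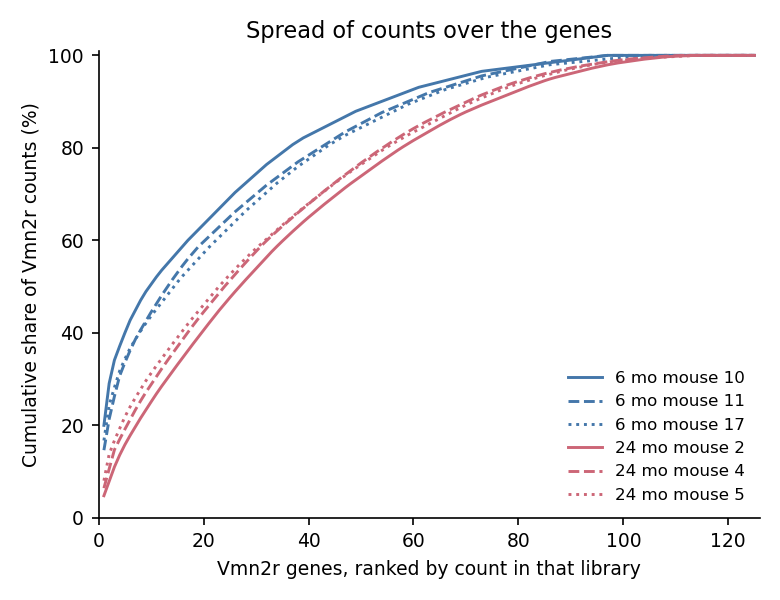
Cumulative share of the V2R counts (percent) against the rank of the gene, from the highest count down, with 1 line for each library. The 6-month lines reach 50% at 10 to 15 genes and the 24-month lines at 23 to 27 genes.

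The concentration at 6 months lay mostly in 5 genes, which were singled out after their values were seen. Vmn2r57 on chromosome 7 and Vmn2r84, Vmn2r85, Vmn2r86 and Vmn2r87, which form a cluster of their own on chromosome 10, were the 5 V2Rs with the highest density at 6 months, where density is CPM per kb of exon. They took 277 to 306 counts of a library at 6 months and 308 to 357 at 24 months. Their share of the V2R counts was 35.8% ± 3.51 at 6 months and 16.4% ± 4.32 at 24 months. Their joint density was 0.246 ± 0.0186 CPM per kb at 6 months and 0.280 ± 0.0140 at 24 months, 1.14 times higher. In counts and in joint density of these 5 genes, the ages did not overlap.

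Without these 5 genes, the spread was closer between the ages. The other 120 genes took 520 ± 89.2 counts at 6 months and 1791 ± 411 at 24 months, and their joint density was 0.0171 ± 0.00234 and 0.0577 ± 0.0145 CPM per kb, 3.37 times higher. Their effective number was 58.5 ± 4.56 at 6 months and 69.1 ± 3.73 at 24 months, without overlap as computed. This index runs lower where counts are fewer, as they were at 6 months. For the 120 genes it was not corrected for that, so it does not show that their counts were more even at 24 months. The highest of the 120 genes held 4.23% ± 0.602 and 4.07% ± 0.731 of their counts, and here the ages overlapped. The 120 densities had a median of 0.0140 CPM per kb at 6 months (quartiles 0.00769 and 0.0202, highest 0.0833) and 0.0561 at 24 months (quartiles 0.0396 and 0.0681, highest 0.125).

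Vmn2r57 (ENSMUSG00000066537.5, chr7:41395945-41448696, minus strand, GRCm38) had 139, 122 and 149 counts in mice 10, 11 and 17 and 117, 144 and 136 in mice 2, 4 and 5. The ages overlapped. The log2 fold change of 24 against 6 months was -0.096 with a standard error (SE) of 0.17 (edgeR quasi-likelihood test, Benjamini-Hochberg adjusted p = 0.717), and it turned to 0.095 with library totals in place of TMM and to 0.017 with edgeR's own filter on low counts. Of its 6558 exon bases, 2724 are also exon of Gm17102 or Gm20449, which had 4 to 14 and 7 to 18 counts. Reads in the shared bases may have been counted for none of these genes or for another than Vmn2r57. Its 6 neighbors in the same cluster, Vmn2r58 to Vmn2r63, had 16, 22 and 25 counts together at 6 months, then 118, 94 and 67 at 24 months.

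Vmn2r84 (ENSMUSG00000070601.5, chr10:130377925-130394332, minus strand) had 63, 56 and 68 counts at 6 months, then 76, 93 and 97 at 24 months. Its log2 fold change was 0.46 (SE 0.19, edgeR quasi-likelihood test, adjusted p = 0.136). Vmn2r85 had 35, 41 and 32 counts and then 38, 35 and 44, with a log2 fold change of 0.074 (SE 0.22, edgeR adjusted p = 0.843) that turned to -0.0087 without mouse 5. For Vmn2r85 the ages overlapped. Vmn2r86 had 21, 37 and 34 counts and then 49, 44 and 43, with a log2 fold change of 0.53 (SE 0.24, edgeR adjusted p = 0.175). Vmn2r87 had 19, 22 and 23 counts and then 28, 31 and 37, with a log2 fold change of 0.54 (SE 0.24, edgeR adjusted p = 0.167). None of these genes shares exon bases with another gene, and the density of the cluster was 0.157 ± 0.00592 CPM per kb at 6 months and 0.208 ± 0.0122 at 24 months. The 4 genes are close copies of each other: for each of them the gene sharing most 69-base windows was another of the 4.

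The promoters of these 5 genes are shown because their levels set them apart at 6 months. The sequences are from RefSeq on GRCm38.p6 and run from 250 bases before to 50 bases after the RefSeq start, all on the minus strand. In all 5, the last 50 bases begin with atg, a possible start codon. The GENCODE gene starts farther upstream inside each window, at 41448696 for Vmn2r57 and 130394332 for Vmn2r84. These windows, called promoters here, thus hold transcribed bases and less than 250 bases before the GENCODE start. Capitals mark the motif TATAAA in Vmn2r57 and, in the other 4, the longest run that all 4 share, of 28 bases.
Vmn2r57 (chr7:41448592-41448891): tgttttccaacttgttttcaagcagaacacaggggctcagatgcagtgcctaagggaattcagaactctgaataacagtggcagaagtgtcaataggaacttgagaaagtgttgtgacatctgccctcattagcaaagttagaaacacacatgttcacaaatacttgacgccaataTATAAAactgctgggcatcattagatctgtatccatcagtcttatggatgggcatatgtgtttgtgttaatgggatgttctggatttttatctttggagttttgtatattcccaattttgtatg
Vmn2r84 (chr10:130394192-130394491): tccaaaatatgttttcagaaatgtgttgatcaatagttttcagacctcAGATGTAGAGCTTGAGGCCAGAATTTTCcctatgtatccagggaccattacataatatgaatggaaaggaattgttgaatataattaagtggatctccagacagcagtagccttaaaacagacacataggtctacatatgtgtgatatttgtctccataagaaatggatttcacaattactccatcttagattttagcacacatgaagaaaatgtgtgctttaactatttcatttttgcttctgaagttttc
Vmn2r85 (chr10:130429563-130429862): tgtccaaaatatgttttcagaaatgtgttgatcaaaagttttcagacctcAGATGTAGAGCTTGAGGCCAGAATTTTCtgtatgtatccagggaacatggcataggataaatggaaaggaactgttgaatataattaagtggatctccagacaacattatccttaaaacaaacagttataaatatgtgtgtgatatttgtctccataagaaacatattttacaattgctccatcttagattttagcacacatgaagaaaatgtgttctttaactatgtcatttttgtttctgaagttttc
Vmn2r86 (chr10:130455845-130456144): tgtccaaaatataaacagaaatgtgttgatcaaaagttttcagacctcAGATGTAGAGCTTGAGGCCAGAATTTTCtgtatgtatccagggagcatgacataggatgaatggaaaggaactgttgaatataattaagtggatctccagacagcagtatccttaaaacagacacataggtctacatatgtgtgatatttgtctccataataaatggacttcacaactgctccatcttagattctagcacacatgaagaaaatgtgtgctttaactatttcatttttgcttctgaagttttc
Vmn2r87 (chr10:130497330-130497629): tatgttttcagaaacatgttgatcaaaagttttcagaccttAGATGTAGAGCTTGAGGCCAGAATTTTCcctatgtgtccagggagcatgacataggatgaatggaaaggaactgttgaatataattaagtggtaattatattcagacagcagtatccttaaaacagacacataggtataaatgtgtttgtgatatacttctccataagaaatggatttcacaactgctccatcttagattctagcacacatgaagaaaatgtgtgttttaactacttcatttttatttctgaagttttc

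The 4 promoters of the chromosome 10 cluster were 84.1% to 93.0% identical to each other, while that of Vmn2r57 was 51.5% to 52.9% identical to them. RefSeq gave a promoter for 115 of the 125 genes, 116 promoters in all. TATAAA was present on either strand in 4 of the 5 promoters above, in 26 of the 116 (22.4%) and in 13.6% of 32544 promoters of all genes. These matches and identities describe the letters of the windows, which in the 5 genes include transcribed bases. For the other genes, the RefSeq start was not checked against the start of transcription.

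For the other 120 genes, the count followed the length of the gene and the amount of unique sequence in it. Across these genes, the counts summed over the 3 libraries of an age correlated with the number of unique 69-base windows with Pearson's r = 0.83 and Spearman's rho = 0.87 at 6 months, and r = 0.95 and rho = 0.96 at 24 months. With exon length, the values were r = 0.79 and rho = 0.79 at 6 months and r = 0.91 and rho = 0.89 at 24 months, nearly as high. With all 125 genes and unique windows, r was 0.21 and 0.64 and rho was 0.81 and 0.90. These points share their libraries and genes share sequence, so they are not independent. The scatter beyond counting error, given as the mean squared deviation from a count proportional to the number of unique windows over the count expected (1 where there is counting error only), was 1.98 ± 0.150 at 6 months and 1.60 ± 0.198 at 24 months over the 120 genes. Relative to exon length in place of unique windows it was 2.44 ± 0.179 and 2.97 ± 0.549, the other way round and overlapping between the ages, so these 120 genes were not more even at 24 months on both scales. With Vmn2r57 and Vmn2r84 to Vmn2r87, and relative to unique windows, it was 44.2 ± 8.11 and 16.8 ± 5.89.

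**Figure D3:**
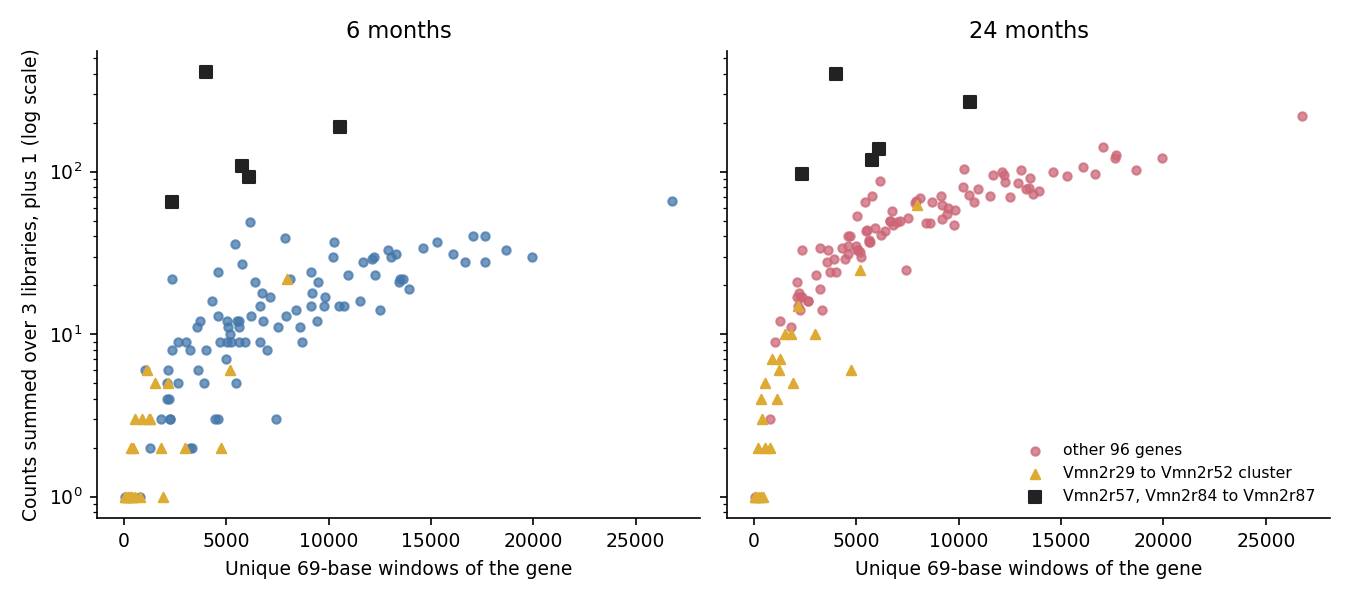
Counts summed over the 3 libraries of an age, plus 1, on a log axis, against the number of unique 69-base windows of the gene, with 1 point for each of the 125 V2R genes. The 5 black squares (Vmn2r57 and Vmn2r84 to Vmn2r87) lie above other genes with as many windows, farther at 6 months than at 24 months, and most triangles of the Vmn2r29 to Vmn2r52 cluster lie at the low end of both axes.

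Genes were also split by how much of their sequence was unique. The 24 genes with under 50% unique windows took 135 counts in all 6 libraries, 0 to 37 for a gene, and 19 of them lay in the Vmn2r29 to Vmn2r52 cluster of chromosome 7. Their density was 0.00321 CPM per kb at 6 months and 0.0121 at 24 months, 3.77 times higher. The 62 genes with at least 90% unique windows had 18 to 284 counts each, and densities of 0.0197 and 0.0673, 3.42 times higher. The 39 genes in between, which include Vmn2r57 and Vmn2r84 to Vmn2r87, had densities of 0.0462 and 0.0806, 1.75 times higher.

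Density was higher at 24 months in most places of the genome where V2Rs lie. In 17 of the 18 clusters, every 24-month library had a higher density than every 6-month library. The exception was Vmn2r118 on chromosome 17, a gene on its own, with 6, 14 and 15 counts at 6 months, then 31, 18 and 15 at 24 months. Several clusters lay close to each other, though not Vmn2r29 to Vmn2r52, which has most genes. The 23 genes from Vmn2r90 to Vmn2r110 on chromosome 17 had 0.0200 ± 0.00279 and 0.0641 ± 0.0193 CPM per kb, and the 15 genes from Vmn2r65 to Vmn2r79 on chromosome 7 had 0.0202 ± 0.00348 and 0.0689 ± 0.0156.

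The lowest density was in the 24 genes from Vmn2r29 to Vmn2r52 (chr7:7231327-10176573), the cluster that holds all 20 V2Rs with the unchanged window printed above. It took 18, 15 and 19 counts at 6 months, then 58, 58 and 51 at 24 months, or 0.00523 ± 0.000836 and 0.0162 ± 0.00143 CPM per kb of exon. The middle gene of this cluster had 23.7% unique windows. Per kb of unique windows, its density was 0.0145 at 6 months and 0.0450 at 24 months. The corresponding values were 0.0210 and 0.0673 for Vmn2r90 to Vmn2r110, so counting only unique sequence brought the cluster nearer to the others.

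**Figure D4:**
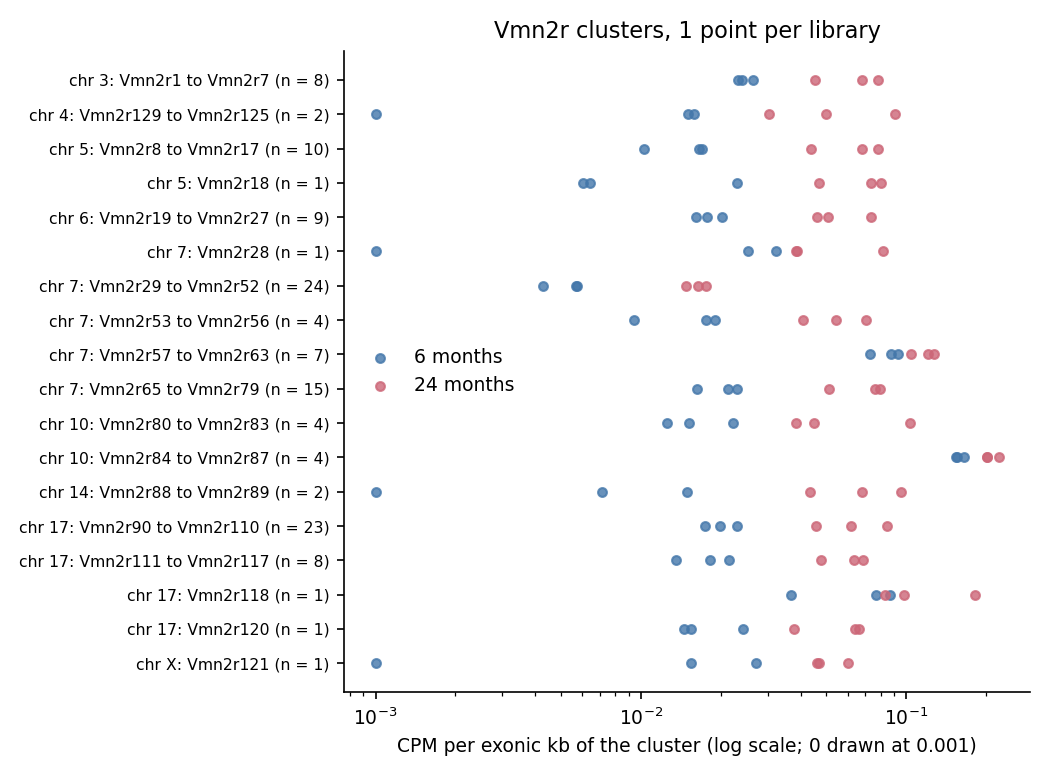
Density (CPM per kb of exon, log axis) of each of the 18 V2R clusters, with 1 point for each library and n the number of genes. Blue 6-month points lie left of the red 24-month points in 17 clusters, with the widest distance from the other clusters for Vmn2r84 to Vmn2r87 (high) and Vmn2r29 to Vmn2r52 (low).

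Single genes were tested between the ages in a fit over all 32905 genes that reached 10 counts summed over all libraries. Of the V2Rs, 105 passed this filter and 20 did not, with 0 to 8 counts each, and 18 of these 20 lay in the Vmn2r29 to Vmn2r52 cluster. The fitted level was higher at 24 months for 104 of the 105 genes, the exception being Vmn2r57. The median log2 fold change was 1.76 (quartiles 1.39 and 2.21). It was 1.61 when the 25 genes with at most 3 counts in every 6-month library were set to that floor. None of these 25 genes reached 10 counts without the 24-month libraries. Their direction, and with it the median, was in part set by the filter. This also holds for other V2Rs with fewer than 10 counts summed over the 6-month libraries. Over all genes tested the median was 0.15, and over those above 1 CPM it was -0.14. With no filter beyond 1 count it was 0.50 over all genes and 1.80 for the V2Rs. Genes at lower counts thus tended to fit higher, and most V2Rs lay under 1 CPM. No set of genes matched in level was compared. Library totals in place of TMM moved the median of all genes to 0.33 and that of the V2Rs to 1.95.

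No V2R passed the 1% false discovery rate (FDR) with edgeR's quasi-likelihood test, which called 0.0% of all genes. At an unadjusted p under 0.05, 85 V2Rs were higher, beside 17.6% of all genes. At 10% FDR, 69 V2Rs were higher and 0 lower, beside 10.0% of all genes higher. This count was 0 without mouse 10, mouse 11 or mouse 4 and 3 without mouse 2, 46 without mouse 17 and 72 without mouse 5. At 1% FDR, edgeR's likelihood ratio test called 52 V2Rs, all higher (4.41% of all genes higher, 5.18% either way), its exact test 45 (2.84% and 3.41%) and DESeq2 5 (0.412% and 0.836%). Every 24-month library was above every 6-month library for 89 of the 105 genes, beside 20.0% of all genes tested, and below for 0, beside 16.2%. The V2Rs called or apart include genes, such as Vmn2r14 and Vmn2r15, that reached the filter of 10 counts only through the 24-month libraries. Their direction was largely set by the filter. The shares over all genes are not matched in level to the V2Rs.

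The genes with the smallest p-values were all at low counts. Vmn2r23 (ENSMUSG00000091620.3, chr6:123702670-123747657, plus strand) had 8, 9 and 10 counts at 6 months, then 55, 38 and 33 at 24 months. Its log2 fold change was 2.17 (SE 0.32, edgeR quasi-likelihood test, adjusted p = 0.0514, the smallest of the V2Rs). Vmn2r76 (chr7:86202024-86246308), the V2R with the longest exon sequence, had 20, 24 and 21 counts and then 76, 93 and 50, with a log2 fold change of 1.70 (SE 0.27, edgeR adjusted p = 0.0517). Both genes were apart between the ages in every mouse.

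The next genes by p-value had the same shape. Vmn2r65 had 4, 5 and 5 counts at 6 months, then 30, 17 and 24 at 24 months, with a fitted log2 fold change of 2.28 (SE 0.39). Vmn2r9 had 4, 3 and 4 and then 15, 22 and 17, with a fitted log2 fold change of 2.21 (SE 0.39). Vmn2r14 had 1, 1 and 2 and then 18, 14 and 10. For Vmn2r14 the ratio of the summed CPM was 10.2, with a 95% counting interval of 3.70 to 39.1. Each of these 3 genes had an edgeR adjusted p of 0.0518.

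Among the genes with most counts, 3 more were apart between the ages. Vmn2r102 had 9, 17 and 13 counts at 6 months, then 63, 51 and 27 at 24 months, and a fitted log2 fold change of 1.81 (SE 0.37). Vmn2r53 had 7, 8 and 14 and then 46, 49 and 25, and a fitted log2 fold change of 1.99 (SE 0.38). Vmn2r3, of family C, had 13, 16 and 10 and then 46, 47 and 28, and a fitted log2 fold change of 1.58 (SE 0.31). The edgeR adjusted p was 0.0518 for each, and in these 3 genes mouse 5 was the lowest of the 24-month libraries.

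The highest fold changes rested on 1 or 2 counts at 6 months. These genes reached the filter of 10 counts only through the 24-month libraries. Vmn2r71 had 0, 0 and 1 counts at 6 months, then 16, 10 and 7 at 24 months, a ratio of 32.0 with a 95% counting interval of 5.36 to 1303. Vmn2r88 had 1, 1 and 0 and then 12, 13 and 5, a ratio of 14.6 (3.69 to 126). Vmn2r83 had 1, 1 and 0 and then 20, 2 and 6, a ratio of 13.6 (3.43 to 118). The edgeR adjusted p was 0.0518 for Vmn2r71 and Vmn2r88 and 0.0768 for Vmn2r83, whose mouse 4 had only 2 counts. The fitted log2 fold change of Vmn2r83 moved from 3.55 to 2.33 without mouse 2, and that of Vmn2r71 from 4.57 to 6.46 without mouse 17, which held its 1 count at 6 months.

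Family C, whose members are the usual partners of the other V2Rs, lies together on chromosome 3. Vmn2r1 had 15, 20 and 13 counts at 6 months, then 23, 38 and 26 at 24 months, with a log2 fold change of 0.81 (SE 0.30, edgeR quasi-likelihood test, adjusted p = 0.109). Vmn2r2 had 7, 7 and 9 and then 11, 20 and 8, overlapping between the ages, with a log2 fold change of 0.71 (SE 0.43, edgeR adjusted p = 0.287). These were the 2 smallest log2 fold changes of the family.

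The rest of family C was farther apart. Vmn2r4 had 4, 6 and 11 counts at 6 months, then 24, 28 and 16 at 24 months, with a log2 fold change of 1.64 (SE 0.41, edgeR adjusted p = 0.0575). Vmn2r5 had 1, 4 and 3 and then 7, 7 and 8, with a log2 fold change of 1.38 (SE 0.54, edgeR adjusted p = 0.121). The ages did not overlap in these genes. Vmn2r6 had 2, 2 and 4 counts and then 20, 19 and 5, with a log2 fold change of 2.37 (SE 0.64, edgeR adjusted p = 0.0621). Vmn2r7 had 3, 5 and 2 and then 11, 15 and 10, with a log2 fold change of 1.77 (SE 0.46, edgeR adjusted p = 0.0605). The 8 genes of the chromosome 3 cluster together had 0.0245 ± 0.00166 CPM per kb at 6 months and 0.0640 ± 0.0169 at 24 months, near the other clusters.

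**Figure D5:**
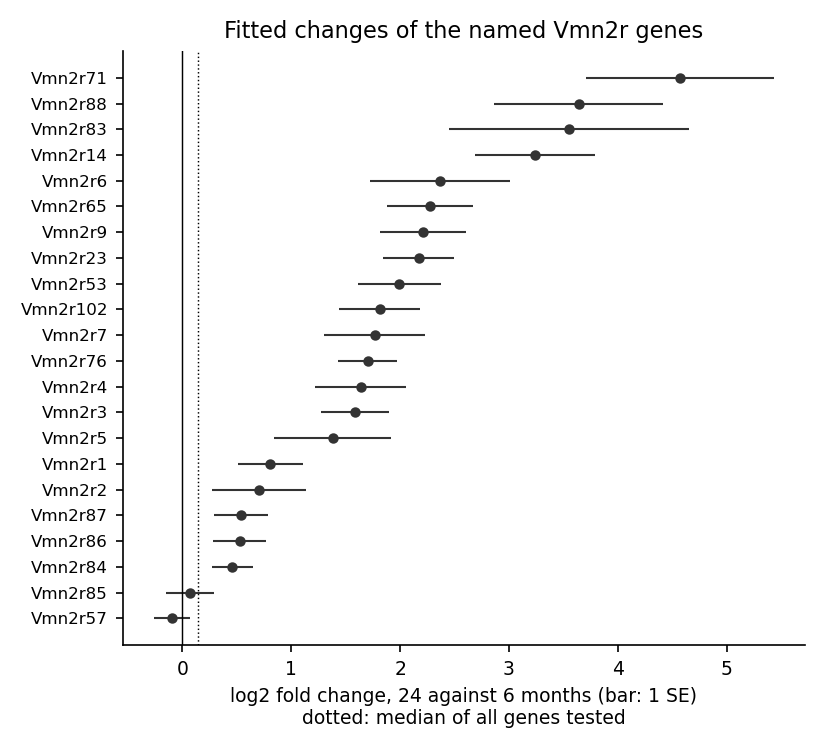
Fitted log2 fold change (24 against 6 months) of the 22 named V2R genes with its standard error, from edgeR with TMM scaling; the dotted line is the median of all genes tested, 0.15. Vmn2r57, Vmn2r85, Vmn2r84, Vmn2r86 and Vmn2r87 lie lowest, Vmn2r57 crosses 0 to 0.095 with library totals, and the points of Vmn2r14, Vmn2r71, Vmn2r83 and Vmn2r88 rest on at most 4 counts at 6 months.

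Within the 24-month group the mice kept an order over many genes. The highest CPM of the 6 libraries was in mouse 2 for 74 V2Rs, in mouse 4 for 29, in mouse 5 for 12 and in a 6-month library for 4. Mouse 2 was above mouse 5 for 96 of the 125 genes. No matching shares over all genes are given, and for V2Rs with few counts the rank is open to counting error. The number of all genes with at least 1 count moved the same way, with 43561 in mouse 2, 42717 in mouse 4 and 40208 in mouse 5, against 33974 to 35651 at 6 months. The TMM factors were 0.921 to 0.946 at 6 months and 1.04 to 1.10 at 24 months. The part of these library-wide differences in the V2R values was not tested.

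Other receptor families of the nose, which are also low in cortex, were read the same way. The V2R pseudogenes (117 genes, Vmn2r-ps) had 0.0125 CPM per kb at 6 months and 0.0433 at 24 months, the vomeronasal type 1 receptors (234 genes, Vmn1r) had 0.0157 and 0.0573, and the odorant receptors (1413 genes, Olfr) had 0.0248 and 0.0739. These were 3.46, 3.64 and 2.98 times higher at 24 months, beside 2.57 times for all V2Rs and 3.37 times for the 120. At 10% FDR the same test called 11 of 35 tested Vmn2r-ps genes, 87 of 139 Vmn1r genes and 486 of 1084 Olfr genes higher, beside 10.0% of all genes. Genes of these families with few counts at 6 months reached the filter only through the 24-month libraries. All Vmn2r-ps genes together had 50, 80 and 84 counts at 6 months, then 304, 240 and 211 at 24 months. The shares called higher were thus in part set by the filter. The ratio of V2R to Vmn1r density was 1.64 ± 0.130 at 6 months and 1.16 ± 0.0864 at 24 months, without overlap. Leaving out Vmn2r57 and Vmn2r84 to Vmn2r87 brought it to 1.09 ± 0.0722 and 1.01 ± 0.0251, and the ages overlapped. The ratio to Olfr density was 1.03 ± 0.0615 and 0.897 ± 0.0287 for all V2Rs, and 0.689 ± 0.0656 and 0.778 ± 0.0162 for the 120, so its direction turned with the 5 genes.

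A list of signaling genes and other genes of vomeronasal neurons gave no calls in the direction of the receptors. Of the 12 genes on this list, 11 were tested, 5 fitted higher and 6 lower, and at 10% FDR 0 were higher and 3 lower, beside 10.0% of all genes higher, 8.33% lower and 18.4% either way. The 3 were Meis2, Bcl11b and, of the signaling genes, Gnao1, and cortical neurons also use all 3. Gnao1 had 18155, 21387 and 19740 counts at 6 months, then 15649, 16193 and 17314 at 24 months, with a log2 fold change of -0.31 (SE 0.08, edgeR quasi-likelihood test, adjusted p = 0.0605). Trpc2, the channel that marks vomeronasal neurons, had 0 counts in all 6 libraries, and Xntrpc, which overlaps it, had 0 to 2. Reads in exons shared by both may have been counted for neither, so these counts do not show that Trpc2 RNA was absent.

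Other markers of nasal tissue were low. Omp, which encodes olfactory marker protein of mature nasal sensory neurons, had 4, 13 and 11 counts at 6 months, then 18, 9 and 5 at 24 months. Tfap2e, a transcription factor of basal vomeronasal neurons, had 1 to 2 counts at 6 months and 1 to 7 at 24 months. The 4 vomeronasal markers together had 0.843 to 1.33 CPM at 6 months and 0.793 to 1.20 at 24 months, overlapping. Most of this was Gng8, with 20, 31 and 17 counts at 6 months, then 17, 18 and 21 at 24 months. The 3 markers of nasal supporting cells had 0 to 0.0579 CPM and 0.173 to 0.339 CPM, from 0 or 1 counts of a gene at 6 months and 0 to 7 at 24 months, and here the ages did not overlap. Of these, Cyp2a5, a cytochrome P450 of nasal epithelium, had 0 counts in each 6-month library and 7, 3 and 2 in mice 2, 4 and 5. It was higher at 10% FDR (edgeR quasi-likelihood test, adjusted p = 0.0687). Cyp2a5 reached the filter of 10 counts only through the 24-month libraries, so its direction was fixed by the filter. Cyp2g1 was not called (edgeR quasi-likelihood test, adjusted p = 0.132), and Obp1a was not tested. The part of these markers in the V2R values was not tested.

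Markers of cortical neurons summed to 5832 to 6831 CPM at 6 months and 4341 to 5692 CPM at 24 months. Most of the sum was Snap25, with means of 5159 and 4152 CPM. Each marker fitted lower but none passed 10% FDR. Slc17a7 changed least, with a log2 fold change of -0.057 (edgeR quasi-likelihood test, adjusted p = 0.704). The part of the summed difference in the V2R values was not tested. The summed levels of the oligodendrocyte, microglia, endothelium and choroid plexus markers overlapped between the ages. Of the 31 markers of all lists, 29 were tested, and at 10% FDR 3 were higher (10.0% of all genes) and 2 lower (8.33%). The higher ones were Cyp2a5 (tested only through its 24-month counts), the microglial gene Tmem119 and the astrocyte gene Gfap. The lower ones were Adcy3 and Gnal. Tmem119 had 989, 1260 and 1102 counts at 6 months, then 1312, 1550 and 1517 at 24 months (edgeR adjusted p = 0.0683), without overlap in CPM, and its part in the V2R values was not tested. Astrocyte markers had 287 to 329 CPM and 307 to 440 CPM, and the olfactory bulb markers had 3.66 to 12.5 CPM and 3.11 to 4.19 CPM, the highest in mouse 11, also overlapping. Markers of olfactory sensory neurons had 190.0 to 200 CPM and 138 to 166 CPM without overlap, most of it from Gnal and Adcy3, which the brain uses too.

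Ligands and partners of V2Rs, and the formyl peptide receptors, another receptor family of vomeronasal neurons, were at the edge of detection. Beside the counts here, 10.0% of all genes were higher at 10% FDR. The 9 H2-Mv genes, which encode class I-like molecules of V2R neurons, had 6 to 10 counts together at 6 months and 24 to 44 at 24 months. Of these, 6 were tested, all fitted higher with a median log2 fold change of 2.59, and 0 passed 10% FDR. All tested but H2-M10.2 had 0 to 2 counts in each 6-month library. They reached the filter of 10 counts mainly through the 24-month libraries, so their direction and the median were largely set by the filter. Of the 16 Esp genes, 5 were tested and 1 was higher at 10% FDR, Esp36, with 2, 0 and 0 counts and then 7, 6 and 5 (edgeR adjusted p = 0.0753). Esp36 also reached the filter mainly through the 24-month libraries. Of the 22 Mup genes and the 7 formyl peptide receptor genes, 3 each were tested and 0 passed.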

How the data were processed

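Cortex RNA was sequenced as single-end reads of 75 bases, 1 library per mouse. Per the study's methods, the authors trimmed the reads with Trim Galore 0.6.4, mapped them to GRCm38 with STAR 2.7.3a and deposited raw counts per gene from featureCounts (Subread 2.0.0, mapping quality at least 15), and TPM values made from these counts and the exon lengths. No strand setting is among the options that the study lists as differing from the featureCounts defaults, so the default would apply. Genes were placed with GENCODE vM21, while the authors used vM23, both on GRCm38: 125 of 125 V2R identifiers matched without their version, and 119 had the same symbol. Exon lengths implied by counts and TPM were within 1% of vM21 for 98.7% to 98.8% of genes.

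Counts were scaled by TMM and tested with edgeR 4.0.16 (quasi-likelihood, R 4.3.3) over all 32905 genes with at least 10 counts, with Benjamini-Hochberg adjustment, at 1% FDR as in the study and at 10%. DESeq2 1.42.0, other edgeR tests, scalings and filters, and fits without each mouse were alternatives. The test was checked on simulated data. Genes were named by fixed rules: the 10 with most counts, the 5 smallest p, the 3 lowest and 3 highest fold changes, and family C. The V2R genes, gene lists and rules were chosen with earlier results of these data known. No p-value is given for sums over the V2Rs.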

Additional observations from a re-analysis of the deposited data

How the results depend on the processing

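The number of V2Rs past 1% FDR was 0 with the quasi-likelihood test, 52 with the likelihood ratio test, 45 with edgeR's exact test, 5 with DESeq2 (which gave 13 tested V2Rs no adjusted p) and 1 with no filter beyond 1 count, and it was 0 without each mouse in turn. At 10% FDR it was 69 and ran from 0 to 72 without 1 mouse. The log2 ratio of summed density was 1.35 and ran from 1.21 to 1.51 without 1 mouse. Without Vmn2r57 and Vmn2r84 to Vmn2r87, an alternative chosen after seeing the data, it was 1.73. The difference in effective number was then 10.7, not corrected for the number of counts. Without these genes the log2 ratio of V2R density to that of Vmn2r-ps, Vmn1r and Olfr genes changed by -0.066, -0.11 and 0.18 between the ages. With all V2Rs it changed by -0.45, -0.49 and -0.20, so the last turned. The difference in genes detected was 14.0 with at least 1 count, 25.7 with at least 2, 33.0 with at least 3 and 6.63 at a common number of V2R counts. The difference in effective number was 36.1 and moved by less than 1 SD per exon kb, at a common number of counts, without Vmn2r57 alone and without each mouse. In deposited TPM, the change against Olfr was -0.32. Vmn2r57 turned from -0.096 to 0.095 with library totals and to 0.017 with edgeR's filter, and Vmn2r85 from 0.074 to -0.0031 without mouse 17 and -0.0087 without mouse 5 (highest 0.21, without mouse 4). Of 280 alternative values of the 22 named genes, 247 kept their direction and side of 1% FDR, 29 passed it and 4 turned. The comparison with Vmn2r-ps genes in protein-coding genes only could not be computed, since these are pseudogenes. The cause of these differences was not tested. No paired analysis was possible because the mouse numbers of the ages share none. With 2 to 4 counts for the middle gene at 6 months, depth limits the folds of single genes.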
